A study of Caenorhabditis elegans with 6 samples.

Results

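The genes described here are 10 components of Wnt signalling in the nematode Caenorhabditis elegans, chosen by name from the 41573 genes listed in each count table: the Wnt ligands lin-44, egl-20, cwn-1, cwn-2 and mom-2, the Dishevelled genes dsh-1, dsh-2 and mig-5, the APC-related gene apr-1 and the TCF gene pop-1. Whole L3 larvae of 2 strains, hs::control and hs::lin-29, were compared by RNA sequencing, with 3 libraries per strain. Both strains were grown from synchronized L1 larvae at 20 °C on the E. coli strain OP50, heat-shocked for 30 min at 37 °C when they had fed for 28 h, and sampled after 1 h of recovery. Heat shock is meant to switch on lin-29, a zinc finger transcription factor gene that times when the larval skin takes on its adult fate, in hs::lin-29 alone. The labels do not say what the control strain carries, which promoter or transgene copy number was used, or how many animals a library holds, and every library was heat-shocked.

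Wnt ligands are secreted lipid-modified proteins that bind Frizzled and Ryk receptors on nearby cells. Dishevelled carries the signal inside the cell, while APC and Axin scaffolds hold back β-catenin, and TCF proteins such as POP-1 switch target genes on or off in the nucleus with β-catenin as partner. In C. elegans a branch of this pathway, the Wnt/β-catenin asymmetry pathway, makes the daughters of dividing cells differ, including the daughters of the seam cells, the stem-like cells of the larval skin whose divisions end in the adult.

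Of the 10 genes, 8 had enough counts to be tested, and dsh-2 and apr-1 were higher in hs::lin-29, dsh-2 by 1.85-fold and apr-1 by 1.47-fold (3 libraries per strain). No ligand, the other tested Dishevelled gene dsh-1 or the TCF gene pop-1 passed the test. The ligand cwn-1 and the Dishevelled gene mig-5, which acts with dsh-2 in asymmetric divisions, had at most 1 count in any library. Levels are given as CPM, counts relative to library size with TMM scaling, and the values of a strain are listed in the order of replicates 1 to 3. The test is edgeR's quasi-likelihood F test, two-sided, with p-values adjusted by Benjamini-Hochberg over all 13045 genes tested and a threshold of 0.05. In this comparison 6.60% of all tested genes passed (861 genes), 2.46% higher and 4.14% lower in hs::lin-29, and 2 higher of 8 is too small a count to read against that background. The count over all genes was 490 with hs::control replicate 2 left out (162 higher, 328 lower), 459 with hs::control replicate 3 left out (135 and 324) and 547 with hs::lin-29 replicate 3 left out (210 and 337), while genes lower numbered 352 with hs::lin-29 replicate 2 left out. The median log2 fold change was 0.15 over the 8 genes and 0.01 over all tested genes.

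The libraries held between 14553652 and 17303509 counts on genes. The induced gene lin-29 stood at 43.8 to 49.8 CPM in hs::control against 131, 517 and 339 CPM in hs::lin-29, a 7.08-fold rise (edgeR adjusted p 0.004621) that did not pass when no filter on low counts was applied (adjusted p 0.1017, range over the alternatives 8.161e-06 to 0.1017). On the second principal component of log2 CPM, hs::control replicate 1 lay at 34.2 and the other 5 libraries between -17.5 and 11.8, so values without it are given below. Of 29 markers of 7 cell types, 23 could be tested and elt-2, an intestinal GATA factor gene, alone passed (2.69-fold higher in hs::lin-29), while elt-3, unc-119, unc-15, elt-7, pgl-1 and pha-4 are listed at 0 in every library. The RNA comes from whole animals, so fewer cells of a type and less RNA per cell cannot be told apart. The labels call the replicates trials without saying that they were separate cultures, so the p-values reflect only how these libraries vary, and that variation may be technical.

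For the ligands no difference between the strains passed the test. Of the 4 tested, none passed in edgeR, DESeq2 or limma-voom, and 1 of them, mom-2, had an unadjusted edgeR p below 0.05, as 18.2% of all tested genes did. lin-44, which polarizes cells of the tail, stood at 18.9, 24.1 and 28.0 CPM in hs::control against 22.6, 21.4 and 24.2 CPM in hs::lin-29. The strains overlapped, and the lowest and the highest value were both in hs::control. Its log2 fold change was -0.06 (SE 0.15), with a 95% interval of the fold change from 0.759 to 1.21. egl-20, which is made in the tail and guides migrating neuroblasts, stood at 17.3, 15.8 and 20.7 CPM in hs::control against 22.7, 19.1 and 17.0 CPM in hs::lin-29. These values overlapped too, at a log2 fold change of 0.13 (SE 0.15) and an interval from 0.861 to 1.39.

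cwn-2, a ligand with roles in the nervous system, stood at 14.2, 15.1 and 16 CPM in hs::control against 20.0, 16.7 and 14.1 CPM in hs::lin-29. The hs::lin-29 libraries spread on both sides of the control values, and the log2 fold change was 0.16 (SE 0.15, fold interval 0.886 to 1.41). A protein-coding gene on the other strand, W01B6.3, shares 50 of the 1427 exonic bases of cwn-2 in the WBcel235 annotation, and it stood at 2.19 to 3.02 CPM in hs::control against 3.90 to 4.89 CPM in hs::lin-29. mom-2, known from the signal that sets endoderm fate in the embryo, had the fewest counts of the tested ligands, at 10.3, 7.79 and 7.62 CPM in hs::control against 11.1, 10.9 and 12.0 CPM in hs::lin-29. All 3 hs::lin-29 libraries lay above all 3 controls, as they did for 11.3% of all tested genes. The log2 fold change of mom-2 was 0.41 (SE 0.16), the largest among the ligands, and it missed the threshold (edgeR adjusted p 0.2047, between 0.06605 and 0.494 over the alternatives). The lowest of these came without hs::control replicate 1, the control nearest to hs::lin-29 for this gene, where the log2 fold change was 0.56.

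**Figure D1:**
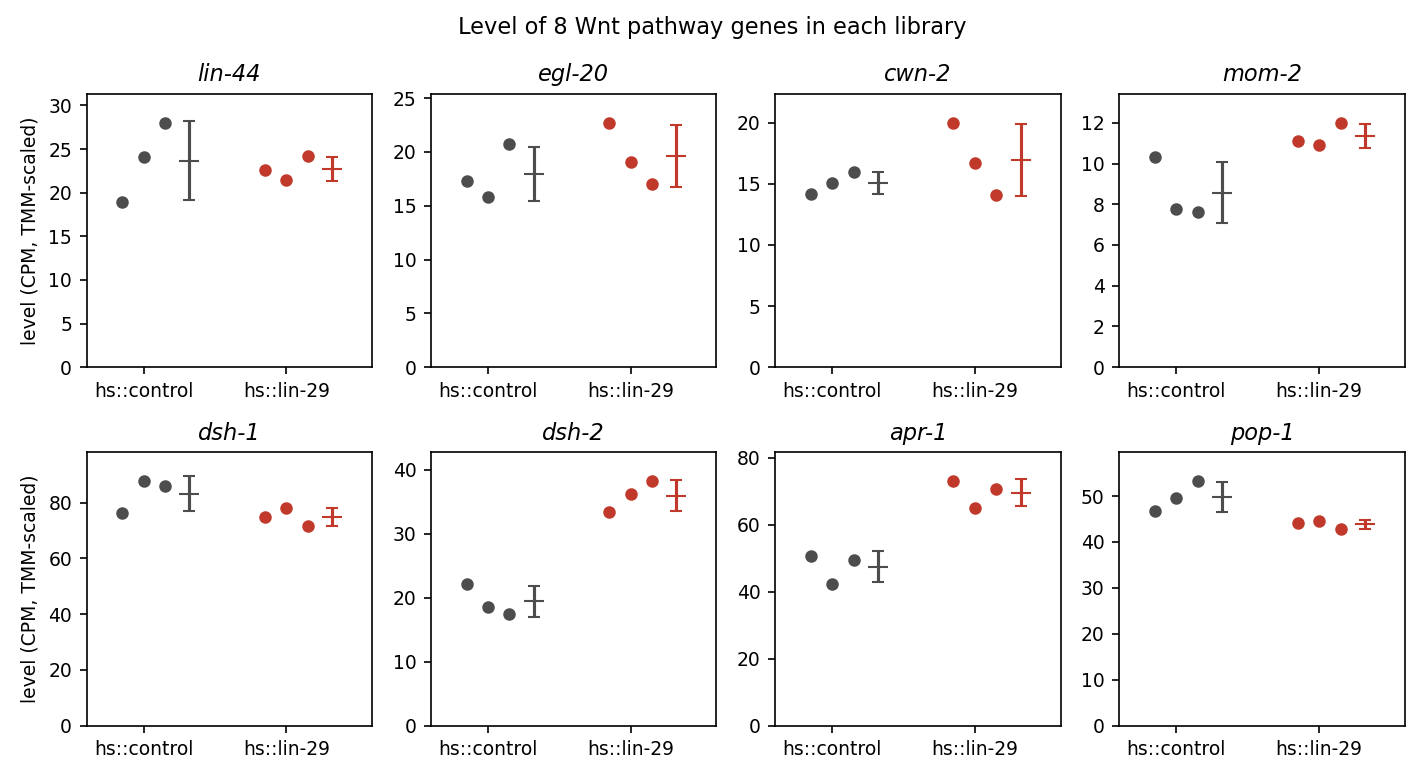
Level of each of the 8 tested genes in CPM (linear axes from 0, a different scale in each panel). Points are libraries, in the order of replicates 1 to 3, grey for hs::control and red for hs::lin-29, and the bar beside them is the mean ± SD (n = 3). The strains separate most for dsh-2 (17.5 to 22.2 against 33.4 to 38.2 CPM) and apr-1 (42.3 to 50.7 against 65.1 to 73 CPM).

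Of the 3 Dishevelled genes, dsh-2 rose, dsh-1 did not pass the test, and mig-5 could not be tested. dsh-2, which acts in asymmetric cell divisions, stood at 22.2, 18.6 and 17.5 CPM in hs::control against 33.4, 36.2 and 38.2 CPM in hs::lin-29. The strains did not overlap, and hs::control replicate 1 was the highest control. The means were 19.4 ± 2.42 and 35.9 ± 2.39 CPM (SD, n = 3), a log2 fold change of 0.89 (SE 0.12) with an edgeR adjusted p of 0.002864. dsh-2 passed in all 16 alternatives, with an adjusted p of 0.02068 or less and a log2 fold change between 0.82 and 0.99, and without hs::control replicate 1 the adjusted p was 0.001803. Among the 321 genes that rose, its log2 fold change ranked 207th, below their median of 1.14.

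dsh-1, the member with the most counts, stood at 76.1, 87.6 and 86.0 CPM in hs::control against 74.8, 78.2 and 71.7 CPM in hs::lin-29. The strains overlapped through hs::control replicate 1, which was the lowest control. The log2 fold change was -0.15 (SE 0.09, adjusted p 0.4715), with a 95% interval of the fold change from 0.777 to 1.04, and without hs::control replicate 1 it was -0.21 (adjusted p 0.2422). The annotation gives dsh-1 8 transcripts of 1521 to 3986 bases and dsh-2 a single one of 2493 bases, and the counts do not separate transcripts.

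The ratio of dsh-2 to dsh-1 counts was higher in every hs::lin-29 library than in any control. There were 29.1, 21.2 and 20.4 dsh-2 counts per 100 dsh-1 counts in hs::control against 44.7, 46.3 and 53.3 in hs::lin-29. hs::control replicate 1 was the highest of the controls and still below every hs::lin-29 library. This ratio does not depend on how libraries are scaled. It uses the same counts as the results for dsh-2 and dsh-1 above, so it is no separate support for the rise of dsh-2. On the log2 scale, with 0.5 added to each count, the mean ratio was -2.10 ± 0.28 in hs::control and -1.06 ± 0.13 in hs::lin-29, a difference of 1.04 or 2.06-fold. An exact two-sided permutation test of this difference gave p = 0.1, the smallest value that 3 against 3 libraries allow, so the design cannot reach 0.05 here. The difference was 0.95 to 1.21 when each library was left out in turn. As a share of the counts of both genes, dsh-2 made up 19 ± 3.13% in hs::control and 32.5 ± 2.06% in hs::lin-29 (SD, n = 3).

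Per kilobase of the longest annotated transcript, the summed level of dsh-1 and dsh-2 was 28.0, 29.4 and 28.6 CPM per kb in hs::control and 32.2, 34.1 and 33.3 CPM per kb in hs::lin-29, with no overlap. The dsh-2 part of it was 24.6% to 31.8% in hs::control against 41.7% to 46.0% in hs::lin-29. If dsh-1 is given the length of its shortest transcript, the share of dsh-2 was 11.1% to 15.1% and 21.4% to 24.5%. The level of dsh-2 against dsh-1 thus depends on the transcript assumed. The order of the libraries in this share does not, since a length scales the ratio alike in every library. The order in the summed level can change, since the length given to dsh-1 sets its weight in the sum. The lack of overlap in the sum holds for the longest dsh-1 transcript and not for the shortest.

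**Figure D2:**
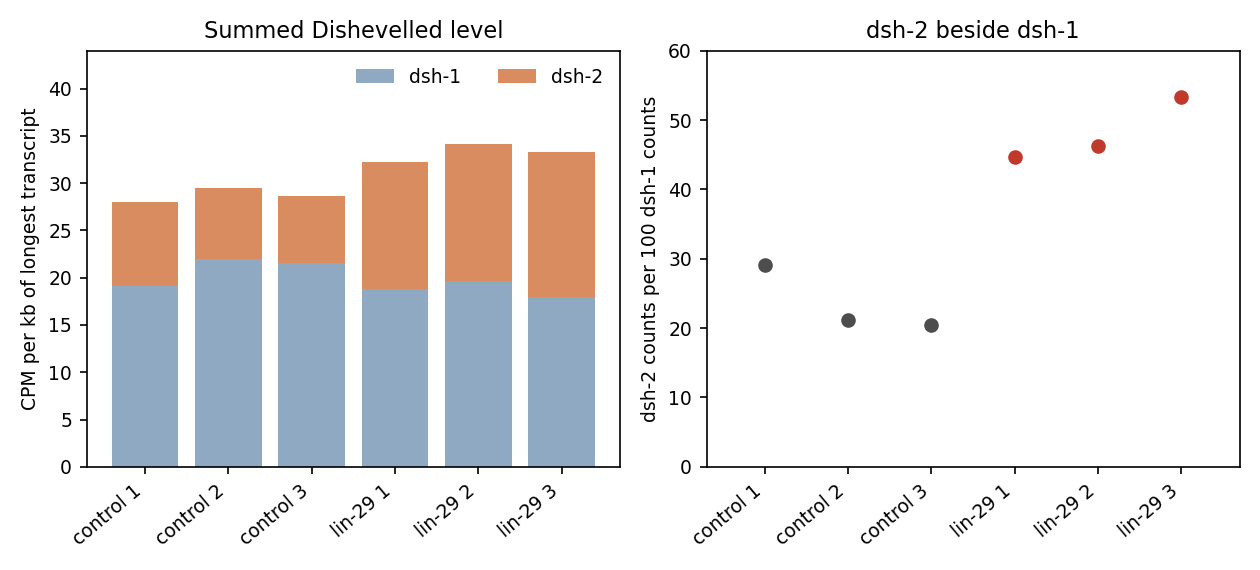
Left, the level of dsh-1 (blue) and dsh-2 (orange) stacked for each library, in CPM per kb of the longest annotated transcript. Right, the number of dsh-2 counts per 100 dsh-1 counts in the same libraries, grey for hs::control and red for hs::lin-29. The dsh-2 part is larger in each hs::lin-29 library, and the ratio runs from 20.4 to 29.1 in hs::control against 44.7 to 53.3 in hs::lin-29.

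mig-5, the other Dishevelled gene, had 1 count in hs::control replicate 3 and 0 in the other 5 libraries. The ligand cwn-1 had 1 count each in hs::control replicate 2 and hs::lin-29 replicate 3 and 0 in the others. A count of 0 would allow up to 3 counts, which is 0.165 to 0.216 CPM depending on the library. No level is read from these genes, since of 17365 protein-coding genes found by name 1954 have no count in any of the 6 libraries, among them genes that most cells or whole tissues use, such as the muscle paramyosin gene unc-15. The results for ligands and Dishevelled therefore leave out 1 gene of each family.

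apr-1 encodes the APC-related scaffold that sits at the anterior cortex of dividing seam cells and lowers nuclear β-catenin in that daughter, and it was the other member that rose. The apr-1 level was 50.7, 42.3 and 49.6 CPM in hs::control against 73, 65.1 and 70.6 CPM in hs::lin-29. The strains did not overlap, and replicate 2 was the lowest library in both. The means were 47.5 ± 4.57 and 69.6 ± 4.05 CPM (SD, n = 3), a log2 fold change of 0.55 (SE 0.10) with an edgeR adjusted p of 0.01304. The call was lost without hs::control replicate 2 (log2 fold change 0.46, adjusted p 0.05148) and held in the other 15 alternatives, over a range of 0.0002237 to 0.05148. Without hs::control replicate 1 the log2 fold change was 0.60. Among the 321 genes that rose, apr-1 ranked 280th by log2 fold change.

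apr-1 overlaps another protein-coding gene, K04G2.9, on the other strand, with 17 of 3907 exonic bases shared in WBcel235. K04G2.9, named here for this overlap, stood at 51.2, 48.2 and 45.1 CPM in hs::control against 66.0, 63.5 and 71.4 CPM in hs::lin-29, so its libraries did not overlap between strains. It rose 1.39-fold (log2 fold change 0.48, SE 0.09, edgeR adjusted p 0.01648), beside 1.47-fold for apr-1. The library kit named in the labels is not a strand-marking one and the counting mode is not given in the sources used here, so reads from the shared bases cannot be assigned to either gene. Whether K04G2.9 has a part in the apr-1 result was not tested.

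pop-1, the TCF gene whose protein is asymmetrically distributed between daughter nuclei, stood at 46.7, 49.5 and 53.2 CPM in hs::control against 44.2, 44.5 and 42.8 CPM in hs::lin-29. All 3 hs::lin-29 libraries lay below all controls, as for 11.9% of all tested genes, but the gap between the nearest libraries was small. The log2 fold change was -0.19 (SE 0.09) (edgeR adjusted p 0.3214, between 0.2121 and 0.6948 over the alternatives), and the 95% interval of the fold change ran from 0.766 to 1.01. The non-coding gene W03D8.13, which lies inside pop-1 on the same strand, had 1.78 to 3.09 CPM over the 6 libraries.

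The spread between libraries set what could be seen. Tested members had between 136 and 1597 counts in a library, for which counting error alone is 8.57% and 2.5%. Within strains, the coefficient of variation was highest for lin-44 in hs::control (19.3%) and lowest for pop-1 in hs::lin-29 (2.02%). For 5 of the 8 genes, namely mom-2, dsh-1, dsh-2, apr-1 and pop-1, hs::control replicate 1 was the control library nearest to the hs::lin-29 mean. Leaving it out therefore enlarged the change of these 5 genes, to -0.23 for pop-1, and called no further member. Without it the log2 fold change was -0.19 for lin-44, 0.11 for egl-20 and 0.12 for cwn-2.

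**Figure D3:**
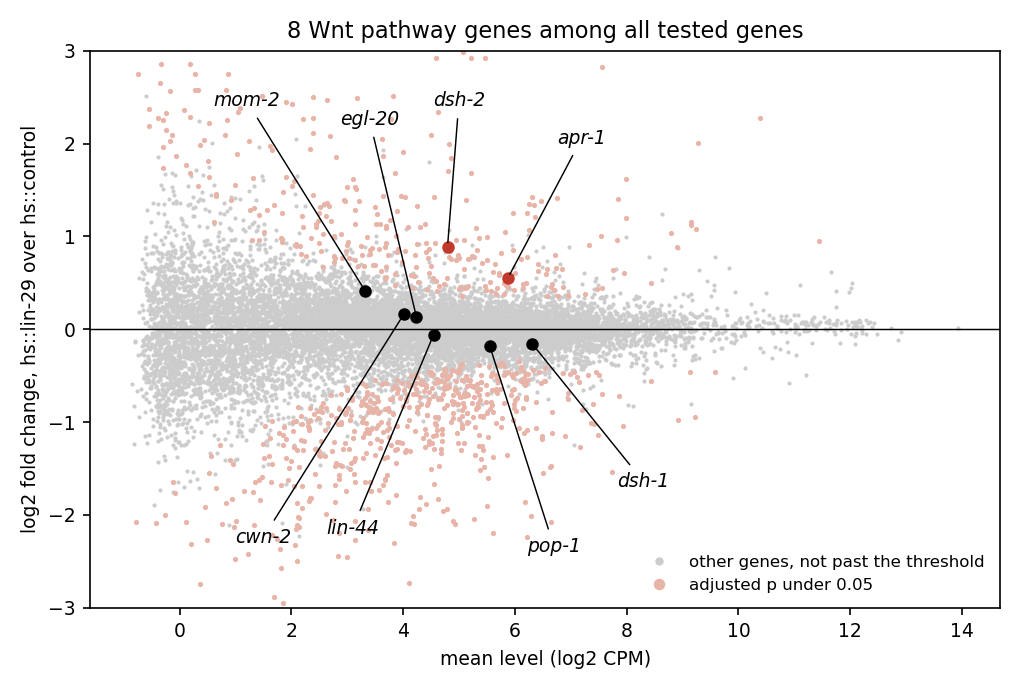
Mean level (log2 CPM) against log2 fold change for the 13045 tested genes, with genes past the threshold in pale red and the 8 Wnt genes labelled, red where they passed and black where they did not. 36 genes with an absolute log2 fold change above 3 lie outside the axis. dsh-2 (0.89) and apr-1 (0.55) are the members in red, and the other 6 lie between -0.19 (pop-1) and 0.41 (mom-2).

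In hs::control the order of levels per kilobase of the longest transcript was dsh-1 (20.9 ± 1.57 CPM per kb), pop-1 (19.5 ± 1.27), lin-44 (17.2 ± 3.32), apr-1 (12.2 ± 1.17), cwn-2 (10.6 ± 0.6), egl-20 (9.19 ± 1.28), dsh-2 (7.79 ± 0.972) and mom-2 (5.57 ± 0.962). Neighbours in this order overlapped between libraries except lin-44 with apr-1 and dsh-2 with mom-2. In hs::lin-29 apr-1 took rank 2, at 17.8 ± 1.04 CPM per kb, and overlapped with dsh-1 above and pop-1 below. There dsh-2 took rank 5, at 14.4 ± 0.961 CPM per kb, below every lin-44 value and overlapping with cwn-2. mom-2 had the lowest level of the 8 in both strains. These ranks and overlaps depend on the transcript assumed. apr-1 has 3 annotated transcripts of 2679 to 3901 bases and dsh-1 has 8 of 1521 to 3986 bases, and shorter lengths would raise their levels.

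The rest of the pathway was read from a list of 36 other Wnt genes, of which 28 could be tested. Of these, 2 rose, snx-3 and nhr-25, and none fell, with 26 not passing, beside 2.46% higher and 4.14% lower among all tested genes, and 2 is too few to read against that background. DESeq2 and limma-voom also called 2, but the count was 0 when any library other than hs::control replicate 1 was left out. An unadjusted edgeR p below 0.05 was found for 3 of the 28, beside 18.2% of all tested genes. The median log2 fold change of the 28 was -0.01, and their libraries did not overlap between strains for 7 genes, 5 higher and 2 lower, beside 23.2% of all tested genes.

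Among genes that handle the ligands in the sending cell, snx-3, a sorting nexin gene of the retromer route that recycles the Wnt carrier MIG-14, stood at 49.4, 40.8 and 40.1 CPM in hs::control against 59.7, 62.5 and 55.5 CPM in hs::lin-29. It rose 1.37-fold (log2 fold change 0.45, SE 0.11, edgeR adjusted p 0.04108). The call was lost without hs::control replicates 2 or 3 (adjusted p 0.143 and 0.1609) and without each hs::lin-29 replicate (0.0824, 0.1394 and 0.0757), in a range of 0.004154 to 0.1609, and without hs::control replicate 1 the log2 fold change was 0.55. mig-14 itself had a log2 fold change of 0.22 (SE 0.12), and the other 5 tested genes of this list lay between -0.17 and 0.09. vps-26 is listed at 0.

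Of 5 tested genes on the receptor list none passed in edgeR, DESeq2 or limma-voom, and none had an unadjusted edgeR p below 0.05. This list also holds vang-1, a planar polarity gene that does not encode a Frizzled, Ryk or Ror receptor. Those with the smallest p were cfz-2, a Frizzled gene, at 1.47 ± 0.284 and 2.06 ± 0.285 CPM (log2 fold change 0.48, SE 0.29), and lin-18, a Ryk gene, at 40.9 ± 1.36 and 38.8 ± 2.59 CPM (-0.08, SE 0.09). The 3 others, mig-1, mom-5 and vang-1, lay between -0.08 and 0.11. The Frizzled gene lin-17, needed for the polarity of several epidermal cells, and the Ror gene cam-1 are listed at 0 and were not measured.

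The β-catenin genes bar-1 and wrm-1 did not pass in edgeR, DESeq2 or limma-voom, with log2 fold changes of -0.07 (SE 0.09) and -0.15 (SE 0.09) and no unadjusted p below 0.05. wrm-1, which acts with the kinase LIT-1 to export POP-1 from the nucleus, stood at 41.8, 37.3 and 41.8 CPM in hs::control against 36.0, 37.1 and 36.0 CPM in hs::lin-29. The hs::lin-29 libraries were lower by a narrow margin. sys-1, the β-catenin gene whose product is the coactivator of POP-1, and hmp-2, the adhesion β-catenin gene, are listed at 0.

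Of 6 tested Axin and kinase genes none passed in any of the 3 tools, and 1 had an unadjusted edgeR p below 0.05. This was lit-1, at 176, 179 and 209 CPM in hs::control against 216, 241 and 217 CPM in hs::lin-29 (log2 fold change 0.26, SE 0.11, adjusted p 0.2439). The Axin gene pry-1, whose product works beside APR-1, stood at 37.2, 38.1 and 45.6 CPM in hs::control against 34.5, 37.1 and 33.9 CPM in hs::lin-29 (log2 fold change -0.20, SE 0.11, adjusted p 0.4069). The hs::lin-29 values of pry-1 lay below every control, as for 11.9% of all tested genes, and the difference did not pass. The nearest values were 37.2 CPM in hs::control and 37.1 CPM in hs::lin-29, so no shift opposite to that of apr-1 is read. The kinase genes gsk-3, kin-19 and mom-4 and the kinase activator gene tap-1 lay between -0.20 and 0.06. kin-20 is listed at 0, and the second Axin gene axl-1 had at most 4 counts in a library and was not tested.

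In the nucleus, nhr-25, a nuclear receptor gene whose product binds β-catenins and acts in seam cells, stood at 47.0, 33.7 and 44.9 CPM in hs::control against 63.9, 67.9 and 55.9 CPM in hs::lin-29. It rose 1.49-fold (log2 fold change 0.58, SE 0.14, edgeR adjusted p 0.04100). This call too was lost without hs::control replicates 2 or 3 (adjusted p 0.0958 and 0.0947) and without each hs::lin-29 replicate (0.0965, 0.1324 and 0.0534), in a range of 0.0002565 to 0.1324, and without hs::control replicate 1 the log2 fold change was 0.67. None of the other 7 tested genes of this list passed, which are the Groucho gene unc-37 and the genes lin-39, mab-5, egl-5, egl-18, elt-6 and psa-3, known as Wnt targets in various cells. Their log2 fold changes ran from -0.52 for psa-3 (SE 0.23) to 0.23 for mab-5 (SE 0.12). The Hox gene mab-5, a target of egl-20 signalling in migrating neuroblasts, stood at 12.7 to 13.6 CPM in hs::control against 14.6 to 16.1 CPM in hs::lin-29.

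**Figure D4:**
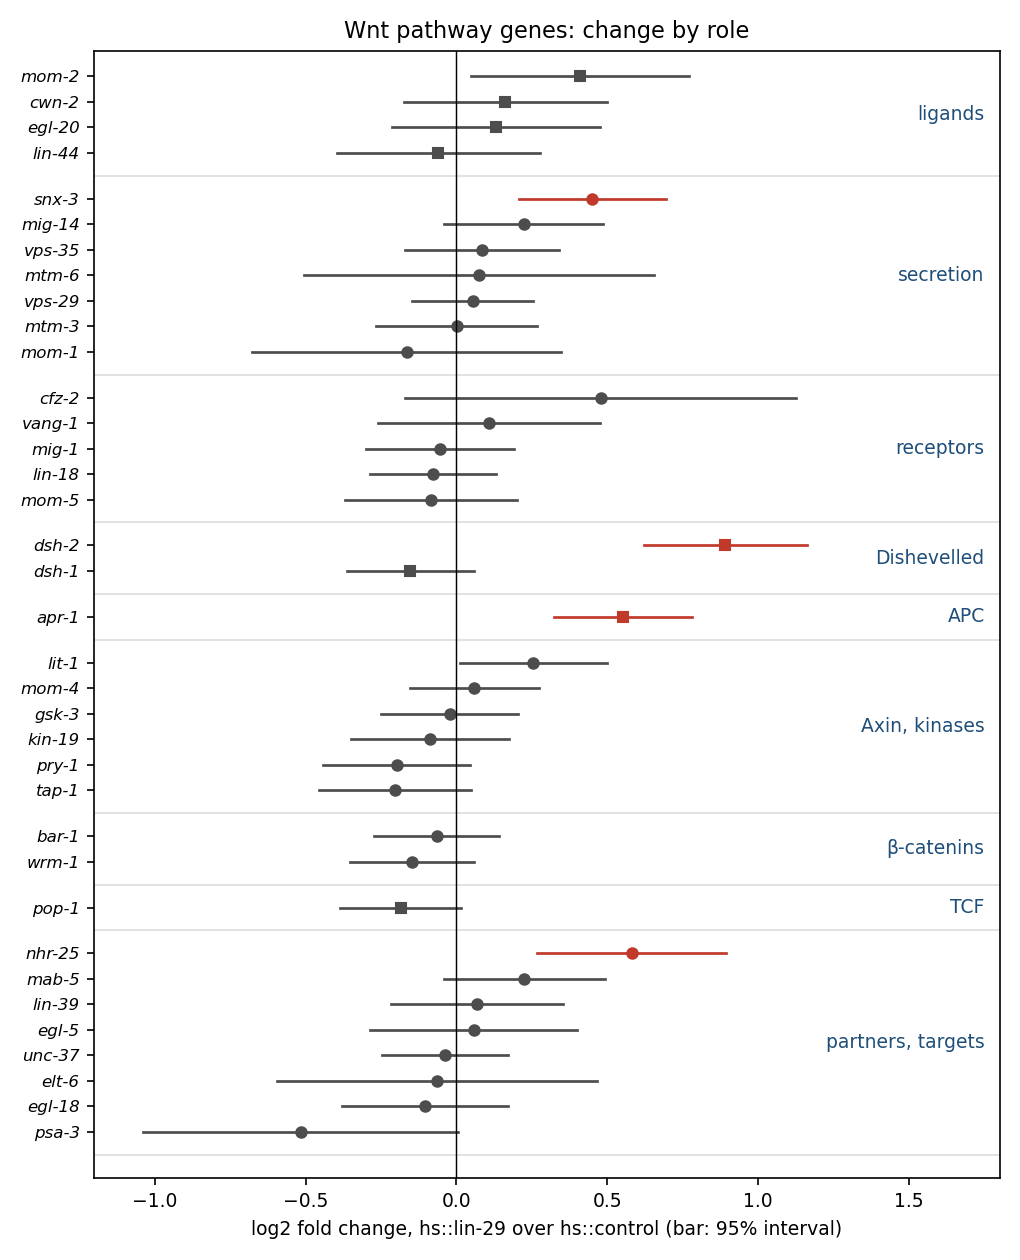
Log2 fold change of hs::lin-29 over hs::control for the 36 tested genes of the pathway, ordered by role. Squares are the 8 members, circles the 28 other genes, bars the 95% interval of edgeR's estimate, and red marks an adjusted p below 0.05. dsh-2 (0.89), nhr-25 (0.58), apr-1 (0.55) and snx-3 (0.45) passed, and they stand in 4 different roles.

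Cell type markers gave the following values beside these results. The summed CPM of 5 seam markers was 375 to 422 in hs::control against 365 to 432 in hs::lin-29. Their log2 fold changes ran from -0.94 for ceh-16 to 0.21 for wrt-2, none past the threshold. Most of the seam sum is grd-10 and wrt-2, so it does not show ceh-16. The ceh-16 values were 3.7, 4.83 and 6.94 CPM in hs::control against 3.54, 2.66 and 1.88 CPM in hs::lin-29. These did not overlap (edgeR adjusted p 0.1221), while those of grd-10, nhr-73, egl-18 and wrt-2 overlapped. The sum of 5 neuronal markers, of which unc-119 is at 0, was 263 to 281 in hs::control against 293 to 312 in hs::lin-29, without overlap. The 4 tested had log2 fold changes of 0.06 to 0.39, none past the threshold. Most of this sum is snb-1, with means of 191 CPM in hs::control and 208 CPM in hs::lin-29. Its libraries did not overlap, as for 11.3% of all tested genes that lay higher, while those of rab-3, unc-64 and rgef-1 overlapped. Of the 4 intestinal markers 3 could be tested, and 1 passed: elt-2 stood at 9.97, 14.3 and 13.8 CPM in hs::control against 42, 32 and 28.6 CPM in hs::lin-29 (log2 fold change 1.43, SE 0.18, edgeR adjusted p 0.00256), and passed in all 16 alternatives. The strains did not overlap, and the change was larger than that of dsh-2 or apr-1. The intestinal sum, 4060 to 5220 CPM in hs::control against 3840 to 4700 in hs::lin-29, is nearly all asp-1, so it does not show elt-2. elt-7 is at 0. The sums of hypodermis, body muscle, germline and pharynx markers overlapped between strains, as did that of the seam. The part of the neuronal, ceh-16 and elt-2 differences in the results for dsh-2 and apr-1 was not tested.

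Across the hs::lin-29 libraries, dsh-2 and apr-1 were not ordered alike. lin-29 was lowest in replicate 1 (131 CPM) and highest in replicate 2 (517 CPM). dsh-2 was lowest in replicate 1 (33.4 CPM) and highest in replicate 3 (38.2 CPM). apr-1 was highest in replicate 1 (73 CPM) and lowest in replicate 2 (65.1 CPM). With 3 libraries, and a coefficient of variation in hs::lin-29 of 6.66% for dsh-2 and 5.81% for apr-1, nothing is read from these orders. The lin-29 counts hold reads of the chromosomal gene and of any transgene together.

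The genes most like each of these in profile were found among 9082 other tested genes whose mean reached 5 CPM, by the root mean square difference of log2 CPM over the 6 libraries after centring each gene. For dsh-2 they were cth-2 (0.08 on the log2 scale), glod-4 (0.09) and ugt-1 (0.09), whose log2 fold changes were 0.97, 0.76 and 0.84. For apr-1 they were sas-5 (0.05), C52G5.2 (0.07) and K11C4.2 (0.08), with log2 fold changes of 0.52, 0.45 and 0.47, the last of which did not pass. None of the 6 is on the Wnt lists used here, but these lists hold only a small part of the 9082 genes, so nothing is read from this. The likeness of the log2 fold changes follows from choosing the genes by profile over the same libraries.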

How the data were processed

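RNA of whole larvae was measured in 6 libraries, 3 per strain. The authors deposited a table of raw, unscaled read counts by gene for each library. Per the submitters' processing notes the tools were HTSeq 0.6.1p1 and STAR 2.5.2b beside bcl2fastq 2.18, and in R 3.3.2 DESeq2 1.12.3; the build was ce10. Which annotation and strand mode served for counting is not given in the sources used here. Rows naming no gene held 39.7% to 41.8% of a library's counts and were left out.

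In edgeR 4.0.16, filterByExpr (minimum count 10, total 15) chose the genes, which were scaled by TMM and tested with glmQLFit and glmQLFTest, robust, with strain as the only term. SE is the absolute log2 fold change over the square root of F; 95% intervals are per gene and approximate. Transcript lengths and gene overlaps come from WBcel235, another build, so no coordinates are given. Floors and counting errors cover counting only. Alternatives were other scalings, filters and tools (DESeq2 1.42.0, limma 3.58.1), a replicate block, and fits without the 20 most abundant genes or without each library. The members and gene lists were chosen with earlier results of these data known. Named genes are all members, other Wnt genes that passed (or the 2 with the smallest p in a list with none), lin-29 and the 3 genes most like each called member; genes named beyond these are given for context. Scripts ran in R 4.3.3 and in Python 3.11.15 with scipy 1.17.1, matplotlib 3.10.9 and pandas 2.3.3.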

Additional observations from a re-analysis of the deposited data

How the results depend on the processing

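Across 16 alternatives for each of 18 named genes, 272 of 288 values kept direction and side of the threshold and 14 lost the call: 6 of snx-3, 6 of nhr-25, 1 of apr-1 and 1 of lin-29. Both values that changed sign belong to uncalled ligands, lin-44 without hs::control replicate 3 (log2 fold change 0.072, range -0.193 to 0.072 over left-out libraries) and egl-20 without hs::lin-29 replicate 1 (-0.005, range -0.005 to 0.239), and the cause was not tested. With a replicate block the genes past the threshold numbered 556 in place of 861 (206 higher, 350 lower), both called members remained past the threshold, and the other Wnt genes past it numbered 0, with an adjusted p of 0.0946 for snx-3 and 0.0879 for nhr-25. Same-numbered libraries did not deviate together (correlations -0.0895, -0.391 and 0.128), so the replicate numbers are not read as pairs. Leaving out 1 library at a time gave 459 to 894 genes past the threshold (135 to 327 higher, 324 to 567 lower), 1 to 2 members, 0 to 2 other Wnt genes, and a dsh-2 to dsh-1 difference of 0.95 to 1.21 log2, with 1.03 when 5 counts were added. Scalings shifted the median log2 fold change of all genes to between -0.03 and 0.03. A gene that missed the threshold is not shown to be unchanged, and at 136 counts, the lowest of a tested member, counting error alone is 8.57%.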
